A study of Mus musculus with 40 samples.

Results

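Medullary principal cells are the water-reabsorbing cells of the deep collecting duct, and 654 nuclei of this kind were examined among 16500 nuclei of mouse right kidney. They are the nuclei that the authors' deposited annotation, in its coarser form of 30 classes, names MPC, and the longer name is a working one. The class was found by a rule on measured values: apart from the classes CPC and CNT, it had the highest level of Aqp2 RNA among classes of at least 50 nuclei. Aqp2 stood at 578 CPM, counts per 1000000 summed UMIs (unique molecular identifiers, each marking 1 captured RNA molecule), in MPC. The next class that the rule could take, of 120 nuclei, had 357 CPM, and CPC, which the rule set aside, had 466 CPM. The class JG cell, at 49 nuclei just under the minimum size, had 104 CPM. Aqp2 therefore describes how the class was chosen and carries no test between classes.

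The study compared the remaining right kidney after removal of the left one (unilateral nephrectomy, UNx) with the right kidney of sham-operated mice, which kept both kidneys. All animals were male C57BL/6 mice of 8 to 12 weeks. Single-nucleus RNA-seq covered 2 sham and 2 UNx mice at 24 h after surgery, from a cross-section of the kidney whose nuclei were sorted by a DNA stain and captured in droplets. The bulk RNA-seq used here covered 6 sham and 6 UNx mice at 24 h, which were other animals. The labels put the first sham and the first UNx mouse of the nucleus experiment in batch 3 and the second of each in batch 4. The MPC class held 154 and 145 nuclei of sham mice 1 and 2, and 198 and 157 nuclei of UNx mice 1 and 2.

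In the collecting duct, vasopressin acts through its receptor Avpr2 and cyclic AMP to move the water channel Aqp2 to the luminal membrane, and water leaves the cell through Aqp3 and Aqp4 on the other side. In the inner medulla the urea transporter encoded by Slc14a2 lets urea pass into the interstitium, which helps to keep the medulla concentrated. Cells there live in high salt and urea and depend on the tonicity-responsive factor Nfat5, whereas sodium uptake through the epithelial sodium channel belongs chiefly to the cortical part of the duct.

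The sequences upstream of 2 genes are shown because Aqp2 chose the class and Ranbp3l led the comparison between UNx and sham described below. Both come from RefSeq (GRCm38.p6), cover the 250 bases before the annotated start, lie on the + strand of chromosome 15 and are written 5′ to 3′. They span chr15:99578806-99579055 for Aqp2 and chr15:8967699-8967948 for Ranbp3l.
Aqp2: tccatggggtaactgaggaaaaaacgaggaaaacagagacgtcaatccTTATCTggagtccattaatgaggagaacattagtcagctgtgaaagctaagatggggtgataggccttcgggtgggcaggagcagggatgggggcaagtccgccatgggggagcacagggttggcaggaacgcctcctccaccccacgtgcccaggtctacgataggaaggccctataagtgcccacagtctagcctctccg
Ranbp3l: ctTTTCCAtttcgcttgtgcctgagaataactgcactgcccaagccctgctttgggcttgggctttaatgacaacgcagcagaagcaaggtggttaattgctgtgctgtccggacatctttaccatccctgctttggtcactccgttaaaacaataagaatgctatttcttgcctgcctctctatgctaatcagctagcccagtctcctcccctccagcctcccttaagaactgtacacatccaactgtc
Capitals mark matches to 3 motifs searched on both strands, none overlapping another: AGATAA (bound by GATA factors), TGGAAA (the core of the element bound by Nfat5) and TGACGTCA (the cyclic AMP response element). The Aqp2 window held AGATAA on the minus strand, beginning 202 bases before the start. In the Ranbp3l window TGGAAA occurred on the minus strand, 248 bases before the start. Of 32851 RefSeq windows of the same length, 9.99% held AGATAA, 18.6% held TGGAAA and 1.55% held TGACGTCA. These matches describe the letters of the windows only.

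The 2 batches stood apart, and every result below was read against that. The class held 1.22 and 1.62 M UMIs in batch 3 (sham 1 and UNx 1) and 1.91 and 1.63 M in batch 4 (sham 2 and UNx 2), with medians of 7534 to 9277 UMIs per nucleus. Mitochondrially encoded genes took 0.622% and 1.03% of the UMIs of the class in batch 3, but 4.77% and 7.60% in batch 4. Nuclei above 20000 UMIs numbered 18 and 17 in batch 4 and were absent from batch 3. The 12 proximal tubule markers, which a principal cell should lack, summed to 2557 and 4439 CPM in batch 3 and 12823 and 12920 CPM in batch 4. Much of these sums came from Kap and Miox. The other 10 markers summed to 263 and 373 CPM in batch 3 and to 5354 and 4894 CPM in batch 4. From these 10 markers, the share of the UMIs of the class that matched the average RNA of all nuclei was estimated. It was 3.05% and 4.87% in batch 3 and 54.6% and 58.9% in batch 4. RNA of proximal tubule markers was thus measured in these nuclei chiefly in batch 4, in both groups of that batch. The estimate assumes that nuclei of the class make none of this RNA themselves. Below, RNA of other cells is the name for this estimate, and where the RNA came from was not tested. Barcodes found in more than 1 library numbered 18 over all nuclei, and 2 nuclei of the class carried one.

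Among markers of principal cells, Aqp2, Aqp4 and Slc14a2 were highest in MPC, over all mice, but Aqp3 was highest in CPC. These levels are CPM of the counts summed per mouse, in the order sham 1, sham 2, UNx 1 and UNx 2. Aqp2 measured 518, 668, 714 and 381 CPM in MPC and 507, 474, 459 and 406 CPM in CPC, so MPC was the higher class in 3 of the 4 mice and the lower one in UNx 2. Slc14a2 RNA stood at 14655, 7526, 16628 and 6841 CPM in MPC, against 7.86, 125, 9.36 and 409 CPM in CPC. The 2 batch 3 mice were the higher ones in MPC and the lower ones in CPC. Aqp4 measured 817, 288, 825 and 357 CPM in MPC and 278, 164, 303 and 119 CPM in CPC, so MPC was above CPC in each of the 4 mice. Aqp3 went the other way, with 36.1, 19.9, 44.5 and 18.4 CPM in MPC and 119, 42.7, 115 and 36.1 CPM in CPC. Avpr2, the vasopressin receptor, was at similar levels in both, 47.4 CPM over all MPC nuclei and 45.0 CPM over all CPC nuclei.

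Some genes tied to sodium uptake were lower in MPC than in CPC, and others were not. Scnn1g, a subunit of the epithelial sodium channel, measured 11.5, 14.1, 2.47 and 16.6 CPM in MPC and 428, 196, 331 and 248 CPM in CPC. Hsd11b2, which keeps glucocorticoids from the mineralocorticoid receptor, measured 19.2 CPM over all MPC nuclei and 237 CPM over all CPC nuclei. Fxyd4, a regulator of the sodium pump in the collecting duct, was at 368 CPM in MPC and 902 CPM in CPC. It belongs, with Slc14a2 and Aqp4, to the inner medullary marker list used below, but was lower in MPC than in CPC in each mouse. Sgk1, an aldosterone-responsive kinase, went the other way, with 236 CPM in MPC, its highest class, and 56.1 CPM in CPC. The class itself was chosen on RNA values, so these levels describe it and are not tests.

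**Figure D1:**
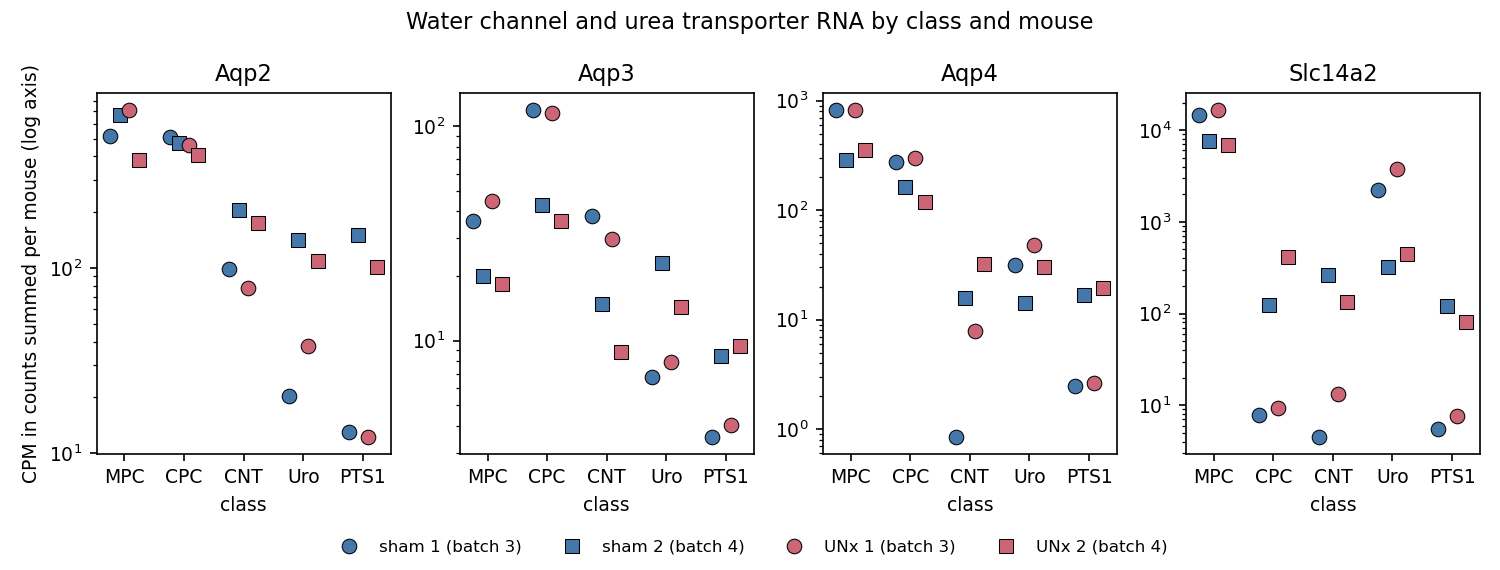
CPM (log axis) of Aqp2, Aqp3, Aqp4 and Slc14a2 in counts summed per mouse for 5 classes of the authors' annotation, with 1 point per mouse (blue sham, red UNx, circles batch 3, squares batch 4). MPC was highest for Slc14a2 (6841 to 16628 CPM), CPC was highest for Aqp3, and the low levels in PTS1, a proximal tubule class, were higher in batch 4 than in batch 3.

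Markers of other cell types were found in the class at lower levels than in the classes where they were highest. The 6 thick ascending limb markers summed to 1904 CPM over the class, against 30502 CPM in CTAL2, and the 8 intercalated cell markers to 26.1 CPM, against 8216 CPM in ICB. The 3 connecting tubule markers summed to 426 CPM, against 35048 CPM in CNT. The 5 urothelial markers reached 15.8 CPM, against 486 CPM in Uro. Of the 14 lists, 11 hold markers of other cells and had a higher sum in both batch 4 mice than in both batch 3 mice. The adipocyte list, the other one of that kind, was at 0.524 to 14.6 CPM. Among all of these markers only Cd3e, a T cell gene, was at 0 in the class.

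**Figure D2:**
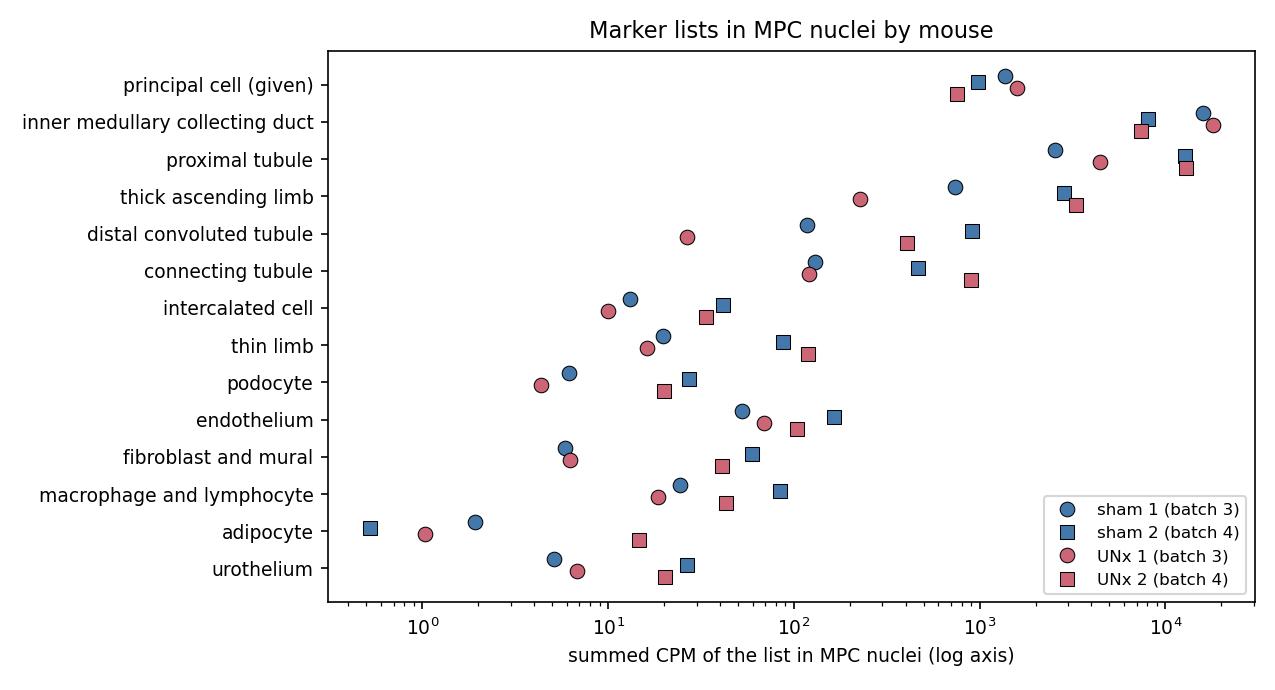
Summed CPM (log axis) of 14 marker lists in MPC nuclei, with 1 point per mouse (blue sham, red UNx, circles batch 3, squares batch 4). The proximal tubule list lay at 2557 and 4439 CPM in batch 3 and at 12823 and 12920 CPM in batch 4. Without Kap and Miox (sums not plotted) it had 263 and 373 CPM in batch 3 and 5354 and 4894 CPM in batch 4. The inner medullary list (Slc14a2, Aqp4 and Fxyd4), led by Slc14a2, was higher in batch 3.

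Some genes of varied function stood higher in MPC, over all mice, than in every other class of at least 50 nuclei. The 15 genes of at least 50 CPM with the highest ratio to the next class are given as a description. Aldh1a3, an enzyme of retinoic acid synthesis, led them at 177 CPM, 15.1 times the level in Fib, and measured 321, 85.4, 252 and 103 CPM in the 4 mice. The tyrosine kinase Syk followed at 81.1 CPM, 7.79 times the level in Uro. Wnt9b, a Wnt ligand of the collecting duct lineage, stood at 133 CPM (151, 76.5, 216 and 103 CPM by mouse), 3.24 times CPC. The epithelial ETS factor Elf5 was at 221 CPM (312, 137, 299 and 173 CPM by mouse), 2.89 times CPC. Further members included Nek10, Adgrf1, Muc20, Lsmem1, Myrfl, Me2, Fermt1 and Slc25a48, beside Slc14a2 and Aqp4, with ratios between 2.25 and 3.94. MPC was the highest class in all 4 mice for 13 of the 15, and in 3 mice for Slc25a48.

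Nuclei of the class differed widely among themselves in Slc14a2. After each nucleus was thinned to 3000 UMIs, the median was 40.0 Slc14a2 UMIs in sham 1, 28.0 in sham 2, 41.5 in UNx 1 and 22.0 in UNx 2. Over the 4 mice the lower quartile was at most 17.0 UMIs and the upper quartile at least 39.0. Nuclei under 10 thinned UMIs made up 17.5% and 19.3% of the class in the sham mice and 18.7% and 27.4% in the UNx mice. Between 8 and 21 nuclei per mouse lay within 2 UMIs of that limit. It was set after the values were seen and divides a range of levels, and whether the nuclei below it are a separate type was not tested.

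In batch 3, where the estimate of other cells' RNA was low, Fxyd4 was higher in the nuclei under that limit in both mice. Other genes that are higher in CPC than in MPC varied in this. Gata3 was also higher under the limit in both, at 352 against 247 CPM in sham 1 and 427 against 289 CPM in UNx 1. In batch 4 it was not, at 95.2 against 156 CPM in sham 2 and 203 against 205 CPM in UNx 2. Fxyd4 measured 1859 CPM under the limit and 276 CPM at or over it in sham 1, and 1163 against 375 CPM in UNx 1. Scnn1g measured 70.9 against 0.964 CPM in sham 1, and 7.29 against 1.49 CPM in UNx 1, where it rests on few UMIs. Aqp3 measured 81.8 against 28.0 CPM in sham 1 and 43.8 against 44.7 CPM in UNx 1, and Hsd11b2 32.7 against 11.6 CPM and 3.65 against 2.98 CPM. Aqp4 was alike on both sides, 845 and 812 CPM in sham 1 and 813 and 827 CPM in UNx 1. In batch 4 Fxyd4 differed less, with 378 against 227 CPM in sham 2 and 274 against 198 CPM in UNx 2. Slc12a1, the sodium, potassium and chloride cotransporter of the thick ascending limb, measured 2278 against 745 CPM in sham 2 and 2214 against 1530 CPM in UNx 2.

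The share of the class among all nuclei did not separate the groups. It was 2.88% in sham 1 (95% exact Clopper-Pearson interval 2.45 to 3.37), 5.49% in sham 2 (4.65 to 6.43), 3.84% in UNx 1 (3.34 to 4.41) and 4.66% in UNx 2 (3.98 to 5.43). Both UNx values lay between the sham values. The means were 4.19% ± 1.84 for sham and 4.25% ± 0.580 for UNx (SD, n = 2 each), and the difference of 0.0675 percentage points had an exact two-sided permutation p of 1.00, where the smallest that 2 against 2 allows is 0.333. Intervals cover counting error only. Among the nuclei of CNT, CPC and MPC alone, the class took 32.0% and 48.2% in sham and 40.8% and 48.6% in UNx, with a mean difference of 4.65 percentage points. Batch 4 gave the higher share within each group in both cases.

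The comparison of UNx with sham asked how the RNA of these nuclei differed 24 h after the other kidney was removed. Values in the account of this comparison are CPM scaled with TMM factors, again in the order sham 1, sham 2, UNx 1 and UNx 2. The water and urea handling genes Aqp2, Slc14a2, Aqp4, Aqp3 and Avpr2 showed no difference that passed the test. Aqp2 measured 529, 644, 727 and 403 CPM, a log2 fold change of −0.05 (SE 0.408), and the UNx values enclosed the sham values. Slc14a2 measured 14960, 7251, 16933 and 7231 CPM, a log2 fold change of 0.12 (SE 0.810), and the mice paired by batch and not by surgery. Aqp4 measured 834, 277, 839 and 378 CPM (log2 fold change 0.13, SE 0.693), and Aqp3 measured 36.8, 19.2, 45.3 and 19.4 CPM (0.22, SE 0.593). Avpr2 measured 51.9, 46.4, 52.9 and 42.1 CPM (−0.05, SE 0.310). The adjusted p of edgeR's quasi-likelihood test was 1.00 for each of these genes, and with the batch as a term it lay between 0.992 and 0.998. With that term the fold change had smaller errors, 0.09 (SE 0.188) for Slc14a2 and −0.11 (SE 0.219) for Aqp2.

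Over the whole table, no gene of 12035 tested was called in edgeR without a batch term (0% called, adjusted p under 0.05), while the unadjusted p was under 0.05 for 40 (16 with a higher and 24 with a lower value in UNx). The DESeq2 Wald test also called 0, with 34 at an unadjusted p under 0.05, and limma voom 0, with 31. In simulated counts, described below, edgeR without the batch term recovered 0 of 100 genes changed 4-fold. Its count of 0 here therefore does not show that no gene differed. With the labelled batch as a term, which compares UNx with sham inside each batch, edgeR called 52 genes (0.432%), of which 25 (0.208% of all tested) were higher and 27 (0.224%) lower in UNx, and the unadjusted p was under 0.05 for 808. That fit leaves 1 residual degree of freedom, so its error rests on the spread shared across genes. The count fell to 4 (Ranbp3l, Egr1, Slc12a3 and the non-coding Gm35188) when nuclei above 20000 UMIs were left out. After the estimated RNA of other cells had been subtracted it was 0, with 280 genes at an unadjusted p under 0.05. The words higher and lower below refer to the fit with the batch term, and each named gene had an adjusted p of 1.00 without it.

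Ranbp3l, which encodes a nuclear export factor related to RanBP3, had the lowest p. It measured 1230 and 991 CPM in sham and 3464 and 2855 CPM in UNx, and both UNx mice lay above both sham mice. The log2 difference was 1.49 in batch 3 and 1.53 in batch 4, and the fit with the batch term gave 1.51 (SE 0.196, adjusted p 8.9e-06). It remained past the threshold without the nuclei above 20000 UMIs (1.47, adjusted p 0.00373), but not after subtraction of other cells' RNA (1.69, adjusted p 0.363). The gene lies on chromosome 15 from 8967949 to 9067335 (mm10, GENCODE M21). Thinned to 3000 UMIs, 88.3% and 87.6% of MPC nuclei in sham and 97.5% and 96.2% in UNx had a Ranbp3l UMI, so its UMIs were not confined to a few nuclei. Unthinned shares were 94.8% and 97.2% in sham and 99.5% and 99.4% in UNx. In the proximal tubule class PTS1, thinned alike, the shares were 37.4%, 45.4%, 41.7% and 51.9%. The difference was present among nuclei of low and of high Slc14a2: in sham 1 and UNx 1, Ranbp3l stood at 761 and 4420 CPM under 10 thinned Slc14a2 UMIs and at 1284 and 3193 CPM at or over it. In sham 2 and UNx 2 the values were 866 and 3016 CPM, and 1114 and 2533 CPM.

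The paired box factors Pax8 and Pax2, which direct the formation of nephrons and collecting ducts, were higher in UNx. Pax8 measured 669 and 635 CPM in sham and 1786 and 1189 CPM in UNx, and the groups did not overlap. Its log2 fold change was 1.16 (SE 0.202, adjusted p 9.7e-04 in edgeR with the batch term), with 1.41 in batch 3 and 0.90 in batch 4. Pax2 measured 1612 and 1161 CPM in sham and 2709 and 2225 CPM in UNx, also without overlap, with a fitted change of 0.84 in log2 (SE 0.194, adjusted p 0.0258). They were the 2 members called among 27 tested of 28 collecting duct transcription factors, beside 0.432% called over all genes tested. Without the batch term 20 of the 27 had a higher fitted value in UNx, beside 5772 of 12035 over all genes. The median was 0.28 against −0.02 over all genes tested. Emx2, a homeobox factor of the ureteric lineage, measured 62.7, 47.4, 108 and 73.2 CPM (adjusted p 0.324). Gata3 measured 268, 130, 318 and 216 CPM (adjusted p 0.600). After subtraction of other cells' RNA Pax8 and Pax2 had fold changes of 1.30 and 0.94, each with an adjusted p of 1.00. Without nuclei above 20000 UMIs the adjusted p was 0.102 for Pax8 and 0.234 for Pax2. In levels without scaling factors, both UNx mice also lay above both sham mice for both genes in CPC, ICA, ATL, DTL3-ATL and Uro. In ICA, Pax8 stood at 323, 368, 523 and 501 CPM and Pax2 at 389, 459, 511 and 786 CPM. In ATL, Pax8 stood at 726, 1016, 1662 and 1267 CPM and Pax2 at 1713, 1974, 2652 and 2616 CPM. In DTL2 the groups overlapped for both, with 1233, 874, 1662 and 1104 CPM for Pax8. UNx was not tested against sham within any of these other classes.

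Immediate early genes, which cells transcribe within minutes of a stimulus, gave 2 calls among 17 tested of 24, both higher in UNx. Over all genes tested 0.432% were called. Egr1, a zinc finger factor, measured 1.67 and 3.53 CPM in sham and 74.9 and 17.5 CPM in UNx. The first UNx mouse stood highest, and the log2 difference was 4.70 in batch 3 and 1.97 in batch 4 (3.68 with the batch term, SE 0.507, adjusted p 2.0e-05). At 3000 UMIs, Egr1 UMIs were found in 0% of nuclei in sham 1 (0 of 154, which allows a share of up to 1.95%) and in 1.38% in sham 2. The shares were 15.2% in UNx 1 and 3.82% in UNx 2, and 0 to 0.930% in PTS1. Unthinned, the MPC shares were 1.30%, 3.45%, 26.3% and 8.28%. Both UNx mice also lay above both sham mice for Egr1 in some other classes, in levels without scaling factors. These were 0, 0, 41.5 and 9.34 CPM in DTL1, 2.37, 1.12, 15.1 and 18.6 CPM in CTAL1, and 0.508, 2.79, 19.3 and 9.03 CPM in CTAL2. ICB went the other way, with 73.5, 26.0, 2.14 and 4.09 CPM, and none of these differences was tested. Fos, a subunit of the AP-1 factor, rested on few molecules: 1 UMI over both sham mice and 25 over both UNx mice, a CPM ratio of 24.1 with a counting interval of 3.94 to 989. Its adjusted p with the batch term was 0.0313, and the scaled levels were 0 and 0.504 CPM in sham and 8.19 and 7.78 CPM in UNx. The median of the list was 0.30 (0.25 with the batch term), against −0.02 over all genes.

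Hbegf, a ligand of the epidermal growth factor receptor, was higher in UNx. It measured 13.4 and 17.7 CPM in sham and 66.1 and 42.8 CPM in UNx without overlap, which gave 1.74 in log2 (SE 0.332, adjusted p 0.00401 in edgeR with the batch term). At 3000 UMIs, 3.90% and 3.45% of nuclei in sham and 15.7% and 8.28% in UNx had a UMI. In PTS1 these shares were 9.82%, 8.74%, 4.29% and 12.3%, so PTS1 nuclei also carried the RNA, and only its first UNx mouse was below the shams. The unthinned MPC shares were 7.14%, 17.9%, 27.3% and 22.9%. Among 34 tested members of 35 in the list of growth factor receptors and the mTOR pathway, Hbegf was the call in this direction, and Egf was the call in the other. The share called over all genes tested was 0.432%.

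**Figure D3:**
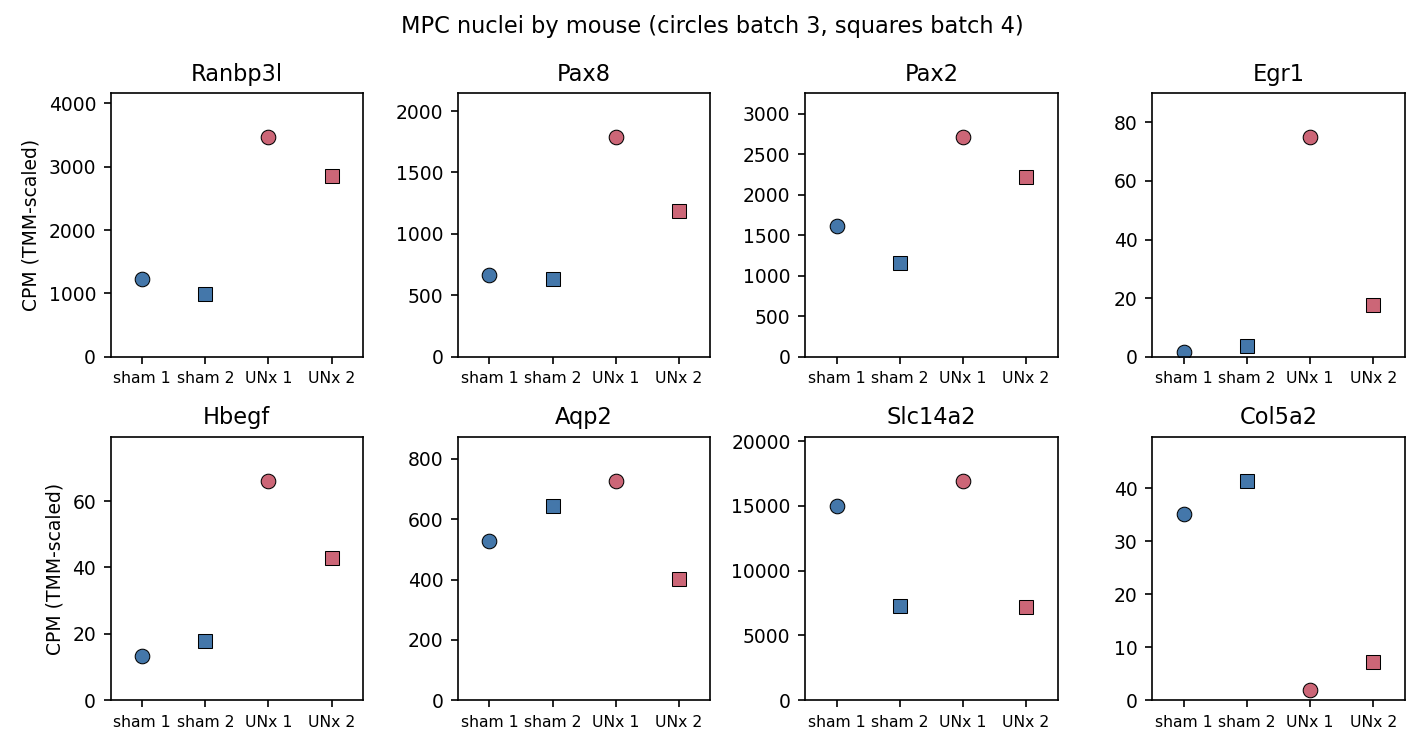
TMM-scaled CPM of 8 genes in MPC nuclei, 1 point per mouse (blue sham, red UNx, circles batch 3, squares batch 4, each axis from 0). Both UNx mice lay above both sham mice for Ranbp3l, Pax8, Pax2, Egr1 and Hbegf and below them for Col5a2, while Aqp2 and Slc14a2 overlapped.

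The 52 genes differed in how far they belong to this class. MPC was the class with the highest level for 7 of them, and for 14 the highest class stood at most 2-fold above it, 10 higher and 4 lower in UNx. For 18 genes another class stood more than 5-fold above MPC, and 13 of these were lower in UNx. The groups did not overlap for 26 of the 52, beside 18.7% of all genes tested (9.35% with both UNx mice above and 9.37% with both below). Both numbers come from the contrast that chose the genes and describe them only. Predicted genes and clones made up 11 of the 52, and mitochondrially encoded genes 6.

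Among the genes at most 2-fold below their highest class was Kif23, a kinesin of cell division. It measured 48.5 and 23.2 CPM in sham and 75.6 and 98.5 CPM in UNx, which gave 1.36 in log2 (SE 0.283, adjusted p 0.00886). Lyar, a nucleolar protein, measured 35.1 and 36.8 CPM in sham and 15.1 and 10.4 CPM in UNx and was lower (−1.51, SE 0.369, adjusted p 0.0419). Adgra1, an adhesion receptor highest in MPC, measured 43.5 and 9.58 CPM in sham and 9.45 and 3.24 CPM in UNx (−1.98, SE 0.489, adjusted p 0.0447). The division gene Kif23 stood alone: none of 13 tested members of 35 cell cycle genes was called, and their median was 0.02 with the batch term. For Ccnb2, a mitotic cyclin, the levels were 3.35, 5.04, 6.30 and 11.0 CPM (adjusted p 0.901).

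A second group of calls belongs to genes that are more abundant in other tubule classes. Slc12a3, the thiazide-sensitive cotransporter of the distal convoluted tubule, measured 80.3, 776, 16.4 and 393 CPM (−1.44, SE 0.244, adjusted p 7.0e-04) and stood at 11907 CPM in DCT. Trpm6, a magnesium channel of the same segment, measured 39.3, 88.8, 8.82 and 34.3 CPM (−1.65, SE 0.309, adjusted p 0.00376). The whole list of 3 distal convoluted tubule markers in MPC was at 118 and 905 CPM in sham and 26.6 and 407 CPM in UNx, with none at 0. Egf, which thick ascending limb and distal convoluted cells make, measured 270, 661, 39.7 and 590 CPM (adjusted p 0.0242), with a log2 difference of −2.73 in batch 3 and −0.16 in batch 4. The 6 thick ascending limb markers summed to 740 and 2860 CPM in sham and 228 and 3317 CPM in UNx. Col5a2, a fibrillar collagen chain, measured 35.1 and 41.4 CPM in sham and 1.89 and 7.13 CPM in UNx (−3.10, SE 0.454, adjusted p 6.1e-05). In CTAL1, its highest class, Col5a2 stood at 1503, 600, 310 and 137 CPM without scaling factors. After subtraction of other cells' RNA, the adjusted p was 0.195 for Slc12a3 and 1.00 for Trpm6, and Egf and Col5a2 could not be tested. Slc12a3 alone of them was among the 4 calls that remained without nuclei above 20000 UMIs.

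All 6 mitochondrially encoded calls were higher in UNx, and single genes that are most abundant in proximal tubule classes were called in either direction. Slco1a1, an organic anion transporter of the proximal tubule, measured 1.67, 16.6, 14.5 and 59.0 CPM (2.05, SE 0.414, adjusted p 0.00595). Keg1 measured 71.9, 1506, 64.2 and 384 CPM and was lower (−1.21, adjusted p 0.0132), but its log2 difference was −0.16 in batch 3 and −1.97 in batch 4. The mitochondrial gene mt-Co2, a subunit of cytochrome oxidase, measured 963, 8110, 1785 and 15343 CPM (0.91, SE 0.191, adjusted p 0.0103). The other 5 mitochondrial calls had fold changes between 0.78 and 1.41. As given above, the mitochondrial share of UMIs was the higher one in the UNx mouse of each batch. Over all nuclei this share was 0.603% (sham) and 0.924% (UNx) in batch 3, and 5.05% and 7.36% in batch 4. In CPC it was 0.810% and 1.54%, then 6.05% and 10.0%, so the difference was not particular to MPC. In the bulk data described below, mt-Atp8 was higher in UNx (0.52, adjusted p 8.9e-04 in edgeR) and mt-Nd5 lower (−0.38, adjusted p 0.0152). The others were not called there. Timp3, an inhibitor of metalloproteinases, measured 132, 645, 311 and 1155 CPM (1.02, SE 0.207, adjusted p 0.00595) and was highest in PTS1 at 2595 CPM. It was the single call among 16 tested of 25 tubular injury and repair genes, beside 0.432% called over all genes tested. The median of that list was −0.15 with the batch term.

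**Figure D4:**
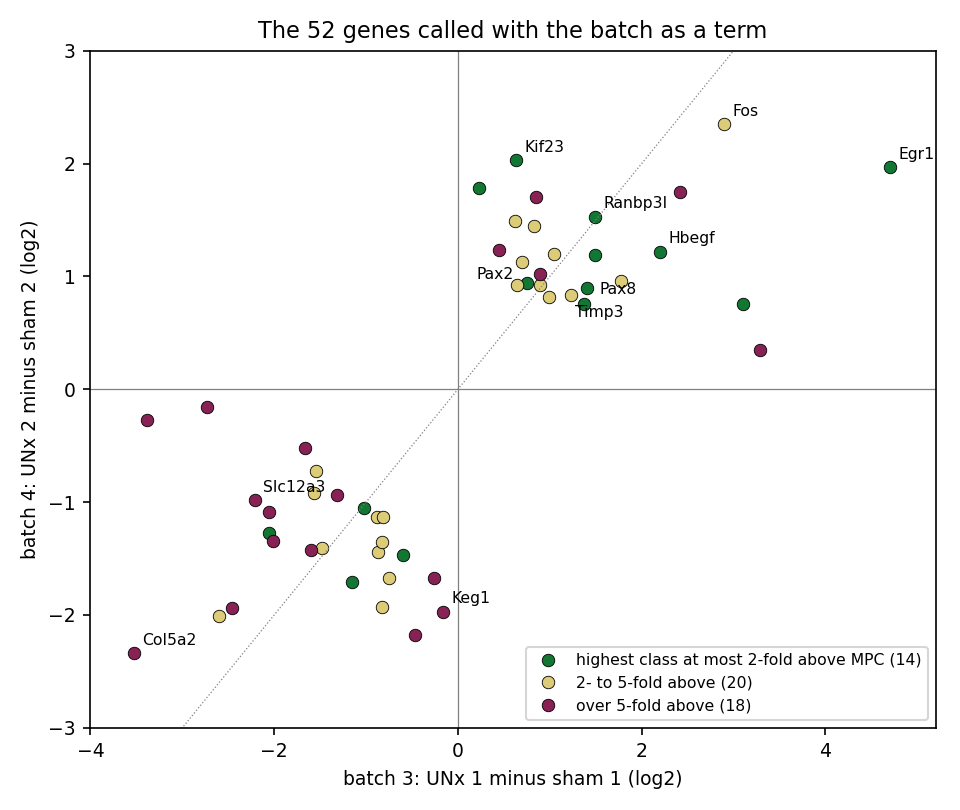
Log2 difference between the UNx and the sham mouse of batch 3 (horizontal) and of batch 4 (vertical) for the 52 genes called with the batch as a term, coloured by how far the highest class stood above MPC. The genes were chosen on these values, so both differences have 1 sign, and Ranbp3l (1.49 and 1.53) lies near the dotted line of equal differences.

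No member of the remaining lists was called with or without the batch term. Of 30 genes of water channels, urea transport and vasopressin signalling, 26 were tested and the median log2 fold change was 0.01. The members with the lowest p were Crem, a cyclic AMP response factor, at 97.9, 71.1, 61.1 and 59.6 CPM (adjusted p 0.782 with the batch term), and the phosphodiesterase gene Pde3b (0.710). Of 23 genes of sodium and potassium transport and aldosterone response, 22 were tested with a median of −0.04. There Stk39, the kinase that activates sodium and chloride cotransporters, measured 340 and 303 CPM in sham and 515 and 472 CPM in UNx without overlap (adjusted p 0.252). The osmolyte and tonicity list had 14 of 16 members tested and the lowest median, −0.34. Hspa4l, an osmotic stress chaperone, measured 203, 169, 128 and 118 CPM (adjusted p 0.375), and Slc38a2, an amino acid transporter, 98.7, 118, 220 and 138 CPM (0.289).

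Cell junction, keratin and adhesion genes had a median of −0.23 over 24 tested of 25. Of them 5 had a higher fitted value in UNx, beside 5772 of 12035 over all genes tested. Krt19, a simple-epithelium keratin, measured 31.8, 21.7, 12.0 and 14.3 CPM (adjusted p 0.487 with the batch term). Among prostaglandin, endothelin and natriuretic genes, 13 of 21 were tested with a median of 0.06. Ptgs1, a cyclooxygenase gene, measured 153, 90.8, 81.9 and 64.8 CPM (adjusted p 0.265). Medians over the Notch and Wnt, glucocorticoid, circadian, cholesterol, unfolded protein and hypoxia lists lay between −0.08 and 0.14. In the glucocorticoid list Rgs2, a regulator of G protein signalling, measured 2.51, 4.54, 11.3 and 19.4 CPM (adjusted p 0.143). In the clock list Nr1d1 measured 10.0, 12.1, 13.9 and 25.9 CPM and Arntl 56.9, 48.4, 42.2 and 31.7 CPM (adjusted p 0.807 and 0.824).

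Ranbp3l RNA was also found at high levels outside MPC. Its levels without scaling factors over all mice were 2678 CPM in Per, 2499 CPM in ATL and 2091 CPM in MPC, in that order, and their ranges over the 4 mice overlapped. MPC had 1205 and 1028 CPM in sham and 3402 and 2700 CPM in UNx. In ATL the levels were 1271 and 2442 CPM in sham and 2704 and 3270 CPM in UNx, which also did not overlap. In Uro they were 571 and 1138 CPM in sham and 2061 and 1494 CPM in UNx, again without overlap. In DTL1 they were 1647 and 2000 CPM in sham and 333 and 1942 CPM in UNx, and the groups overlapped. In PTS1 the level over all mice was 247 CPM. Differences in classes other than MPC and CPC were not tested here.

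**Figure D5:**
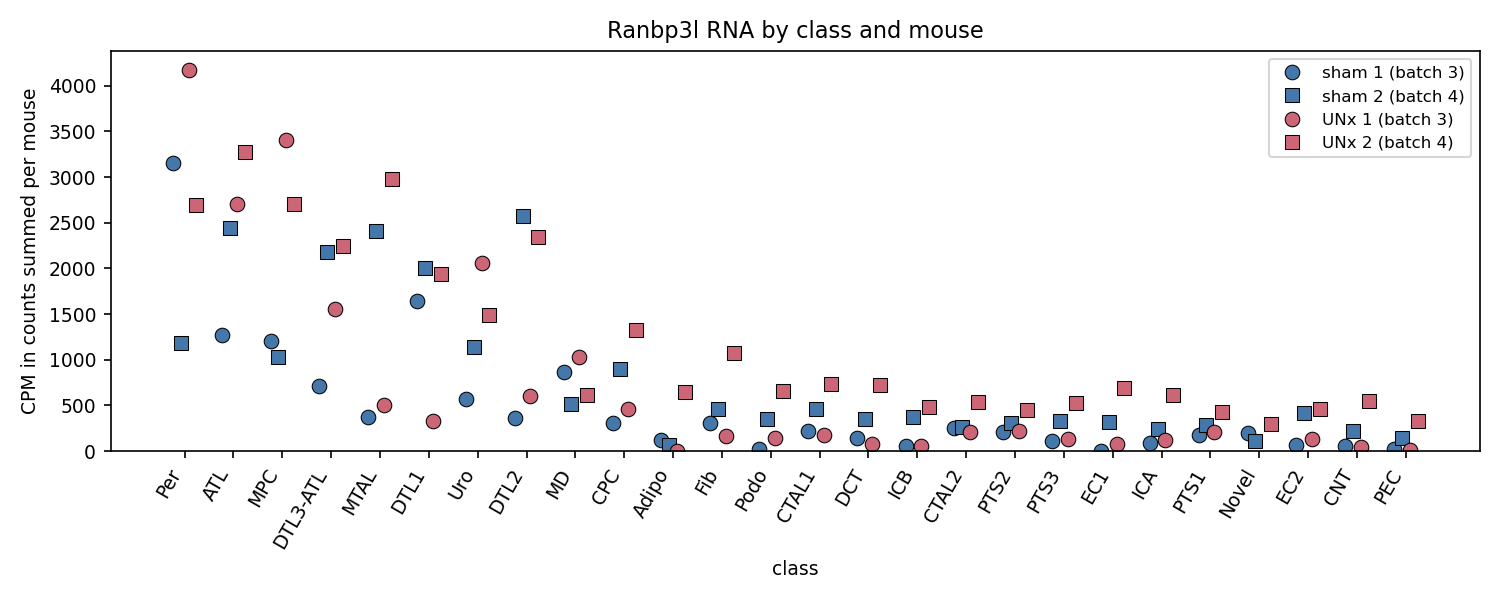
CPM of Ranbp3l in counts summed per mouse for classes of at least 50 nuclei, ordered by the level over all mice, with 1 point per mouse that had nuclei of the class (blue sham, red UNx, circles batch 3, squares batch 4). In MPC the sham mice had 1028 and 1205 CPM and the UNx mice 2700 and 3402 CPM, and most classes at the right had higher values in batch 4.

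The difference between the UNx effect in MPC and that in CPC was tested as an interaction over the 8 sums of the 4 mice. With the mouse as a block, 0 of 11713 genes were called in edgeR (0%), and 182 had an unadjusted p under 0.05. Without a filter on low counts 2 were called. Without UNx mouse 1, 15 were called. With the mouse block and, added to it, a batch term for the difference between the classes, 18 were called (0.154%), in a fit that leaves 1 residual degree of freedom. The log2 effect in MPC minus that in CPC was above 0 for 11 of them (0.0939%) and below 0 for 7 (0.0598%), a sign that does not tell in which class a gene differed. Ranbp3l was among the 11: in CPC it measured 308 and 904 CPM in sham and 466 and 1330 CPM in UNx, and the log2 effect in MPC was larger by 0.91 (SE 0.164, adjusted p 6.4e-05, and 1.00 with the mouse block alone). For Pax8 the difference was 0.50 (SE 0.187, adjusted p 0.585), with 408, 461, 712 and 641 CPM in CPC. For Egr1 it was 3.16 (SE 1.38, adjusted p 0.759), with 1.07, 3.76, 6.45 and 1.64 CPM in CPC. For Hbegf it was 1.45 (SE 0.751, adjusted p 0.898).

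Other calls of this interaction included Alcam, an adhesion molecule, which measured 620, 211, 926 and 385 CPM in MPC and 76.4, 124, 40.9 and 49.3 CPM in CPC (1.87, SE 0.276, adjusted p 5.3e-08). Coro2a, an actin-binding protein, measured 118, 42.4, 109 and 48.7 CPM in MPC and 80.4, 8.90, 12.9 and 4.93 CPM in CPC (2.27, SE 0.501, adjusted p 0.00635). Gulp1, an adaptor of engulfment, measured 63.0, 32.8, 14.1 and 13.7 CPM in MPC and 553, 150, 458 and 188 CPM in CPC (−1.70, SE 0.327, adjusted p 3.4e-04). The call with the lowest p, Slc14a2 (−1.54, adjusted p 7.1e-18), had low levels in CPC, where Slc14a2 measured 7.86 and 125 CPM in sham and 9.36 and 409 CPM in UNx, with the higher values in batch 4. At 3000 UMIs its share of CPC nuclei with a UMI was 13.2% in both batch 4 mice, and that of PTS1 nuclei 14.5% in sham 2 and 12.8% in UNx 2. Genes with the lowest p under the mouse block alone were Kcnma1, Dcdc2a and Pdcd4 (difference above 0) and Spink10, Fcgbp and Gulp1 (below 0), each with an adjusted p of 1.00. With that block alone the adjusted p was also 1.00 for Alcam, Coro2a and Slc14a2.

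Bulk RNA of kidney cross-sections gave a second view at the same time. Values here are TMM-scaled CPM of other mice, with 14.9 to 21.0 M estimated counts per sham library and 19.3 to 24.1 M per UNx library, of which mitochondrially encoded genes took 23.5% to 26.7% and 21.5% to 24.9%. Of 14104 genes tested, 27.3% were called in edgeR. In bulk samples, fewer cells of a type and less RNA per cell cannot be told apart. Avpr2 was higher in UNx, at 9.81 ± 2.09 CPM in sham and 14.6 ± 1.41 CPM in UNx (SD, n = 6 each), and its groups did not overlap (log2 fold change 0.57, SE 0.123, adjusted p 0.00374 in edgeR). Scnn1a, the alpha subunit of the epithelial sodium channel, was lower, at 156 ± 4.27 CPM in sham and 126 ± 14.5 CPM in UNx (−0.30, SE 0.0664, adjusted p 0.00400). In sham libraries Aqp2 had a lowest value of 35.8, a median of 92.7 and a highest value of 108 CPM, and in UNx libraries 79.0, 110 and 171 CPM. The difference of 0.50 (SE 0.233) did not pass the test (adjusted p 0.124). Aqp3 measured 72.5 ± 9.62 and 86.2 ± 12.1 CPM (adjusted p 0.0680 in edgeR). Slc14a2 varied from 11.7 to 149 CPM among sham libraries and from 45.8 to 107 CPM among UNx libraries, and Aqp4 from 12.6 to 53.5 CPM and from 15.7 to 46.4 CPM, with adjusted p of 0.858 and 0.853.

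Of the 30 genes of the water list, all were tested in bulk, and 2 were called higher (14.2% of all genes tested were) and 7 lower (13.1% were), in all a share close to the 27.3% over all genes. The higher ones were Avpr2 and Prkar2b, a regulatory subunit of protein kinase A whose UNx mean of 7.80 ± 14.5 CPM rested on a library at 37.4 CPM. Among the lower ones, Pde1a, a phosphodiesterase, measured 78.6 ± 6.36 CPM in sham and 57.6 ± 3.72 CPM in UNx without overlap (−0.45, SE 0.0619, adjusted p 2.3e-04). The others were Pde4b, Pde4d, the factor Creb3l1, the second vasopressin receptor gene Avpr1a, and the vesicle traffic genes Stx3 and Rab11fip2. These RNAs are made in several kidney cell types.

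The genes that led the comparison in MPC nuclei did not lead in bulk. Ranbp3l measured 33.2 ± 4.30 CPM in sham and 36.8 ± 8.23 CPM in UNx (0.15, SE 0.127, adjusted p 0.404 in edgeR). Pax8 was lower in bulk UNx, at 75.5 ± 3.62 and 63.8 ± 6.72 CPM (−0.24, SE 0.0658, adjusted p 0.0138), and so was Pax2, at 43.7 ± 7.33 and 30.9 ± 8.29 CPM (−0.50, SE 0.152, adjusted p 0.0234). Both directions are opposite to those in MPC nuclei, and also to those in CPC nuclei, where Pax2 had 787 and 822 CPM in sham and 1117 and 1262 CPM in UNx. The Pax2 effect in MPC and CPC nuclei differed by 0.26 in log2 (adjusted p 0.977 with the mouse block and batch term). Egr1, Fos and Hbegf were not called, with adjusted p of 0.859, 0.635 and 0.157. Lyar was lower in both data sets, in bulk at 24.3 ± 5.69 and 14.9 ± 1.89 CPM (−0.70, SE 0.138, adjusted p 0.00209). Of the 52 genes called in MPC with the batch term, 41 were tested in bulk and 14 were called, where 27.3% of all genes tested in bulk were. Of these 14, 6 had the same direction as in MPC. Whether either count departs from that of other genes was not tested.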

How the data were processed

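Nucleus and bulk samples were grouped by surgery and time from the labels. For the nuclei the authors deposited estimated counts of UMIs per gene, not normalized, made with alevin and Seurat on mm10 per the submitters' processing notes. For bulk RNA they deposited estimated counts per gene, for which those notes name Salmon 1.5.0, FastQC 0.11.8, R 4.10 and GRCm39. The versions of alevin and Seurat, nucleus filters and doublet treatment were not given in the sources used here. Doublets were not called. The bulk libraries of 48 h and 72 h were not analysed here.

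Counts of each class were summed per mouse and rounded to whole numbers (13.9% of the nucleus values above 0 and 26.3% of the bulk values at 24 h were not whole, within 0.0001). Salmon and alevin share reads among similar transcripts, so counts of close paralogs are uncertain. The mouse was the replicate. Genes were tested, two-sided, with edgeR 4.0.16 (quasi-likelihood, filterByExpr, TMM, R 4.3.3), with 0.05 as the threshold after Benjamini-Hochberg adjustment. The class was fitted alone, with CPC for the interaction. Standard errors are the fold change over the square root of F.

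The replicate number was also fitted as a block. For the nuclei the pairing comes from the labels, which give replicate 1 of both groups to batch 3 and replicate 2 to batch 4, and deviations of the paired MPC sums from their group means correlated at r = 0.767 across genes. Blocked values therefore stand beside the results they change. Nothing says that mice of a group came from separate litters, so p-values measure the spread between these samples.

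Other alternatives were DESeq2 1.42.0 size factors and its Wald test, voom in limma 3.58.1, other count filters, no mitochondrially encoded genes, rounding per nucleus and leaving out mice. After the data had been seen, blocked versions of these, sums without nuclei above 20000 UMIs, and subtraction of other cells' RNA (estimated from 10 proximal tubule markers) were added. In counts simulated from the 12035 genes of the MPC comparison, the block recovered 44 of 100 genes changed 2-fold and 96 of 100 changed 4-fold, with 5 false among 145 calls, and no block recovered 0. Every simulated gene had the same spread, taken from the fit with the block, and unchanged genes had the same batch means in both groups. The simulation therefore does not give the rate of false calls in the real data.

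The class, the 16 pathway lists and the 14 marker lists were chosen with earlier results of these data known. The named genes are, per direction, the 10 largest called changes with at least 5 CPM and no overlap, filled by lowest p where too few were called, then from each list its called members, at most 4, or its 2 lowest p, and the collecting duct genes. Calls with the batch term and genes compared with CPC were named after their values were seen. A few genes that the rule names are not reported here. Promoter sequences and their build come from RefSeq, and 28340 of 28467 bulk identifiers had a symbol in GENCODE M21.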

Additional observations from a re-analysis of the deposited data

Results flagged for a closer look

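One value stood apart in 32 bulk groups of 6 libraries examined for 16 genes. The highest UNx library for Aqp3 at 24 h was at 110 CPM, with the nearest other at 84.4 CPM, a gap above Dixon's 95% limit, relative to the range of the group, for 6 values. Chance gives about 1 such library in 20 groups.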

How the results depend on the processing

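For MPC, the count of genes called was 0 in all fits without a batch term, leaving out each mouse included. As edgeR without that term also recovered 0 of 100 simulated 4-fold changes, these counts do not show that no gene differed. The replicate block, which is the labelled batch, gave 52 calls. With the block and another choice there were 65 with DESeq2 size factors, 84 with no filter, 15 with the DESeq2 Wald test (13 of the 52), 70 with limma voom (51 of the 52), 4 without nuclei above 20000 UMIs and 0 after subtraction of other cells' RNA. Of the 52, 3 and 8 could not be tested in the last 2. In the blocked DESeq2 Wald test many of the 52, Egr1, Hbegf, Fos and Col5a2 among them, had no adjusted p. Those outside the 13 therefore did not all fail that test. For the interaction with CPC the count was 2 with no filter and 18 with the replicate block, and leaving out each mouse gave 0 to 15 (15 without UNx mouse 1). The share difference was 4.65 percentage points among CNT, CPC and MPC. In bulk the block gave 3186 calls, and same-numbered mice correlated at r between −0.157 and 0.0285, so the bulk numbers do not pair samples. The cause of these changes was not tested.

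Single fold changes (log2) that turned were uncalled. Slc14a2 in MPC gave −0.01 with the block and no nuclei above 20000 UMIs, and in bulk 0.32 with voom and 0.18 with the block. Avpr2 in MPC gave 0.03 and 0.01 after subtraction, with and without the block. Scnn1a in MPC gave −0.71 with voom, −0.01 with the block and −0.01 with the block and no nuclei above 20000 UMIs. Scnn1g in MPC gave 0.03 with the block after subtraction, and Gata3 in bulk −0.01 with voom.

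Leaving out each mouse without a batch term, where a lone mouse is assumed to vary like the other group, turned the sign of the genes that follow. These ranges were −0.54 to 0.34 for Aqp2, −0.51 to 0.77 for Aqp3, −0.55 to 1.15 for Aqp4, −0.22 to 0.14 for Avpr2, −0.62 to 0.75 for Slc14a2, −2.60 to 1.75 for Scnn1a, −1.48 to 0.21 for Scnn1b and −2.27 to 0.46 for Scnn1g. They were −0.28 to 2.80 for Cd36, −1.68 to 0.31 for Cebpb, −3.53 to 0.35 for Egf, −3.26 to 1.45 for Gldc, −3.60 to 1.66 for Keg1, −2.42 to 0.29 for Klhl14, −0.28 to 2.24 for Nudt19, −3.53 to 0.96 for Pappa and −1.06 to 0.20 for Pde3b. For Ptger1 the range was −0.38 to 1.10, for Sgk1 −0.37 to 0.84, for Slc12a3 −4.68 to 1.37, for Sorbs2os −4.07 to 1.91, for Timp3 −0.30 to 2.50 and for Wnt9b −0.05 to 1.18. The mitochondrial genes ranged from −1.64 to 4.12 (mt-Atp8), −1.55 to 3.13 (mt-Co1), −1.32 to 3.18 (mt-Co2), −0.47 to 2.26 (mt-Nd1), −1.01 to 3.31 (mt-Nd3) and −1.67 to 3.77 (mt-Nd5). Ranbp3l kept its direction, from 1.37 to 1.69. With 2 mice per group and most of the UMIs of the class in batch 4 estimated to match the average RNA of all nuclei, depth limits low genes such as Fos.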
